A study of Mus musculus with 4 samples.

Results

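Insertions and deletions (indels) with a net length of 2 or more bases that is not a multiple of 3 were examined in whole-exome sequencing of mouse leukaemia cells. An indel was taken when it lay on an autosome and when both deposited callers gave it 10 or more reads, 3 or more of them with the variant, and a variant share (allele fraction) of 0.10 or higher. SpeedSeq also had to give it a quality score of at least 20, and both callers had to place it at the same position with the same alleles once shared bases were trimmed. This gave 990, 1035, 949 and 820 indels in replicates 1 to 4, at 1908 distinct sites. The same limits gave 51787 distinct autosomal variants of every kind, among them 4315 one-base indels and 810 indels in multiples of 3.

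All 4 samples belong to 1 group, labelled E2-KO, in the series title's terms Nras-G12D with knockout of Ezh2, on a C57BL/6 background. DNA came from c-Kit+ leukaemia cells of the bone marrow of moribund mice. The sources used here do not give the promoter or Cre behind the Ezh2 loss, nor the ages of the mice. With no control group and no matched normal tissue analysed here, no indel can be called somatic, and DNA variants cannot test the cell-type label. The labels do not say which animal gave which sample, so replicates are numbered in listed order and the spread between them may be technical in part.

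Ribosomes read coding sequence in steps of 3 bases, so an indel of any other length inside a coding exon shifts the reading frame downstream of it. Outside coding exons the same indel has no frame to shift. Short tandem repeats gain or lose whole units when the copying strand slips on its template, and mismatch repair removes most such loops. An indel of 2 bases can therefore be 1 unit of a two-base repeat or 2 units of a run of one base, whereas 4 bases can be 1 unit of a four-base repeat. Only gene starts and ends were used here, without exons, so no member is called a frameshift below.

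The following members show the sequence contexts that separate the results below. Each is the longer allele on the plus strand of mm10, 5′ to 3′, with the deleted or inserted bases in capitals. The coordinates span the reference bases shown. The first set lies in a two-base repeat, in a run of one base or in a repeat of a four-base unit.
Crebbp 2-base deletion, chr16:4099614-4099667: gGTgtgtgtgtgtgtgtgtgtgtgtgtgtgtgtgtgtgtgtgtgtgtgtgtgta
Lig1 2-base deletion, chr7:13301131-13301173: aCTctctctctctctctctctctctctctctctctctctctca
Hmmr 2-base deletion, chr11:40703771-40703782: cTTttttttacc
Bcat1 2-base deletion, chr6:145034478-145034500: tGGgggggggggggtgtgagagc
Kit 4-base insertion, chr5:75645782-75645787: tTATCtatct
Xrcc6 8-base deletion, chr15:81999660-81999682: aTTTGTTTGtttgtttgttttgc

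The second set met none of the repeat limits and holds the long and the odd-length members to which the allele fractions below refer.
Nolc1 28-base deletion, chr19:46083639-46083668: cGTTGTCCTTTAGACTCCTGAGACCATTGa
Th 29-base deletion, chr7:142896520-142896550: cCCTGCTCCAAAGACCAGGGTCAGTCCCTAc
Pole 16-base deletion, chr5:110289452-110289469: tAGTGGATGAGTGATAGa
Pkd2l1 5-base deletion, chr19:44153808-44153814: aAGCCTa
Jak1 13-base insertion, chr4:101163638-101163640: cCAGCCATCCTCTTca
G3bp1 8-base insertion, chr11:55485573-55485575: aCAGTGAGTca
Ankrd17 5-base insertion, chr5:90295822-90295826: tTTAGGttaa

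Even net lengths made up most of the set, which by its rule leaves out the odd lengths 1 and 3. The shortest lengths left, 2 and 4 bases, are both even, so the even majority depends on this rule. Of the 1908 sites 1608 were even (84.3%, exact 95% binomial interval 82.6 to 85.9) and 300 were odd. In single samples the even share was 83.2%, 84.0%, 83.9% and 82.6% (replicates 1 to 4). Indels of 2, 4 and 8 bases accounted for 1509 of the even sites, and all other even lengths together for 99. The spectrum fell from 1009 sites of 2 bases to 411 of 4 bases and 153 of 5 bases. Above that it was not monotonic, with 79 sites of 7 bases, 89 of 8 bases and 49 of 10 bases. Under the same limits 4315 sites had a net length of 1 base and 480 of 3 bases, each more than of 4 bases. The longest member was a deletion of 29 bases.

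**Figure D1:**
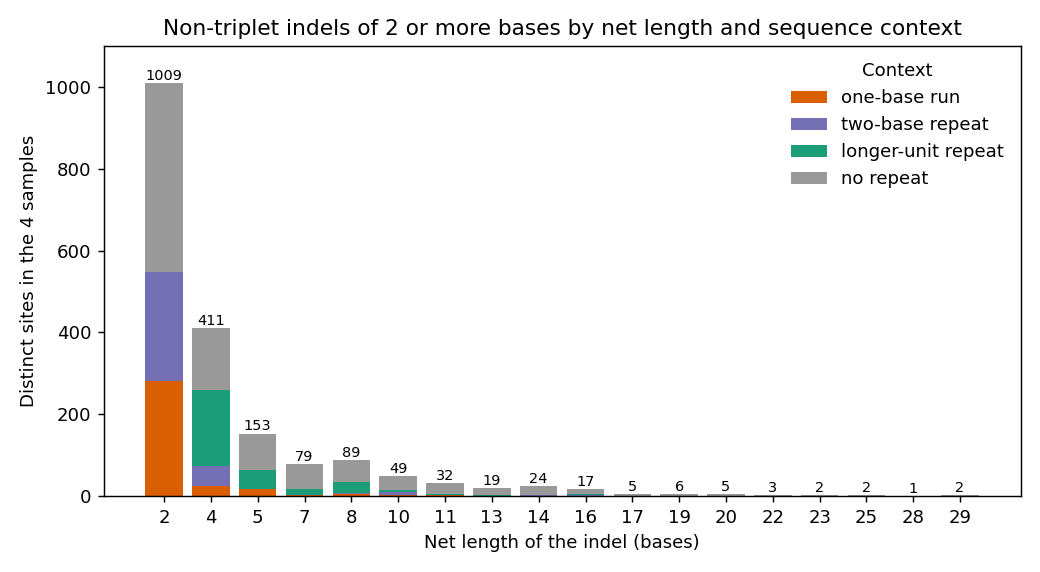
Distinct sites (y axis) by net length in bases (x axis, only lengths that occur), stacked by sequence context, with the number of sites above each bar. Sites of 2 bases number 1009 and sites of 4 bases 411, and the two-base repeat and one-base run colours sit mostly in the bar of 2 bases.

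The context of an indel was read from its longer allele. A run of at least 6 equal bases was called a one-base run, at least 4 units of 2 bases a two-base repeat, and at least 2 units of 3 or more bases a longer-unit repeat. These limits were chosen after the data were examined. They put 338 sites in a one-base run, 327 in a two-base repeat, 293 in a longer-unit repeat and 950 in no repeat. For 604 sites, 494 of them without a repeat, the deposited reference string ended inside the run, so the run length is a lower bound there and the number without a repeat an upper bound.

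Even and odd indels differed in where they lay. Of the even sites 54.0% were in one of these repeats (51.5 to 56.4), and of the odd sites 30.0% (24.9 to 35.5). By construction no odd length can be a whole number of two-base units. Even sites are also mostly shorter than odd ones. Of the even sites with lengths other than 2, 4 and 8 bases, 24.2% were in a repeat (16.2 to 33.9), below the odd share. Even length and short length are therefore not separated by this comparison. Per sample the even share in a repeat was higher by 20.2 ± 1.82 percentage points (SD, n = 4) and was the higher one in 4 of 4 samples. An exact sign-flip permutation test over 4 samples, two-sided, gave p = 0.125, the smallest p that 4 samples allow, and adjusted p = 0.181 over the 13 differences tested this way. No difference tested in this design can pass 0.05. Among the 1009 sites of 2 bases, 282 lay in a one-base run, 266 in a two-base repeat and 461 in neither. Among the 411 sites of 4 bases, 187 lay in a repeat of a four-base unit, as the Kit insertion does, and 48 in a two-base repeat.

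Compared with the mm10 reference, two-base repeats more often lacked units than held extra ones. Loss and gain below are relative to that reference, and the original allele is not known. Of the 327 sites 25.1% were insertions (20.5 to 30.1), against 42.4% of the sites in no repeat (39.3 to 45.6). A loss of 1 unit was the change at 206 sites and a loss of 2 units at 31, whereas 60 sites gained 1 unit and 17 gained 2. The unit was AC, counted with its reverse complement and rotations, at 197 sites, AG at 90, AT at 39 and CG at 1. The reference run had a median of 26 bases in this context, of 12 bases in one-base runs and of 9 bases in longer-unit repeats. Longer-unit repeats were nearly balanced, with 50.5% insertions. Within each sample the insertion share was lower in two-base repeats than in no repeat, with a difference of -14.7 to -12.5 percentage points (mean -13.8 ± 0.943, SD, n = 4, exact sign-flip p = 0.125, adjusted p = 0.181). Among indels with a quality of at least 100 the mean was -6.06 points, and with longer runs required -21.3. For comparison, even and odd indels differed in insertion share by a mean of -1.27 ± 1.20 points (exact sign-flip p = 0.125, adjusted p = 0.181), and the sign of that difference depended on the filter.

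The allele fraction is the number of variant reads over the depth in SpeedSeq. Values of 0.65 or more are called upper-range here, the range of a homozygous or hemizygous variant in an undiluted sample, and lower values lower-range. Upper-range indels were 26.6%, 25.8%, 26.1% and 53.3% of the members of replicates 1 to 4. Replicate 4 thus stood apart from the other 3, which lay close together. Single-nucleotide variants (SNVs) of the same samples did likewise, with 24.2%, 24.0%, 27.7% and 53.4% in the upper range. Median depth at the members was 33, 31, 37 and 30 reads.

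Odd lengths were upper-range in 29.5%, 31.3%, 25.5% and 60.1% of cases and even lengths in 26.0%, 24.7%, 26.3% and 51.8%. The difference, even minus odd, averaged -4.41 ± 3.97 points (SD, n = 4) and was negative in 3 of 4 samples (exact sign-flip p = 0.25, adjusted p = 0.295). Several other settings brought it near 0. It was -0.128 points without the indels in a repeat and -1.33 points at a depth of at least 20. With variant reads over reference plus variant reads it was 0.0276 points, and with the VarScan2 fraction it was 0.403 points. Members exceeded one-base indels of the same samples, whose upper-range shares were 22.0%, 20.6%, 22.3% and 40.2%, by 6.65 ± 4.32 points in 4 of 4 samples (exact sign-flip p = 0.125, adjusted p = 0.181). Without the indels in a repeat that difference turned to -2.74 points. Indels in multiples of 3 had shares of 25.7%, 23.0%, 26.8% and 50.4%, which differed from the members by 1.46 ± 1.71 points (exact sign-flip p = 0.25, adjusted p = 0.295).

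In the lower range, at a depth of at least 30, the members' median allele fraction was 0.419, 0.423, 0.343 and 0.418 in replicates 1 to 4. That of SNVs was 0.453, 0.462, 0.379 and 0.455. The members lay below the SNVs of their own sample in 4 of 4 samples, with a difference of -0.0362 ± 0.00221 (SD, n = 4, exact sign-flip p = 0.125, adjusted p = 0.181). Replicate 3 was the lowest for both kinds of variant. The callers list nothing under a fraction of 0.2 among the members, so the low end of these distributions is not seen.

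**Figure D2:**
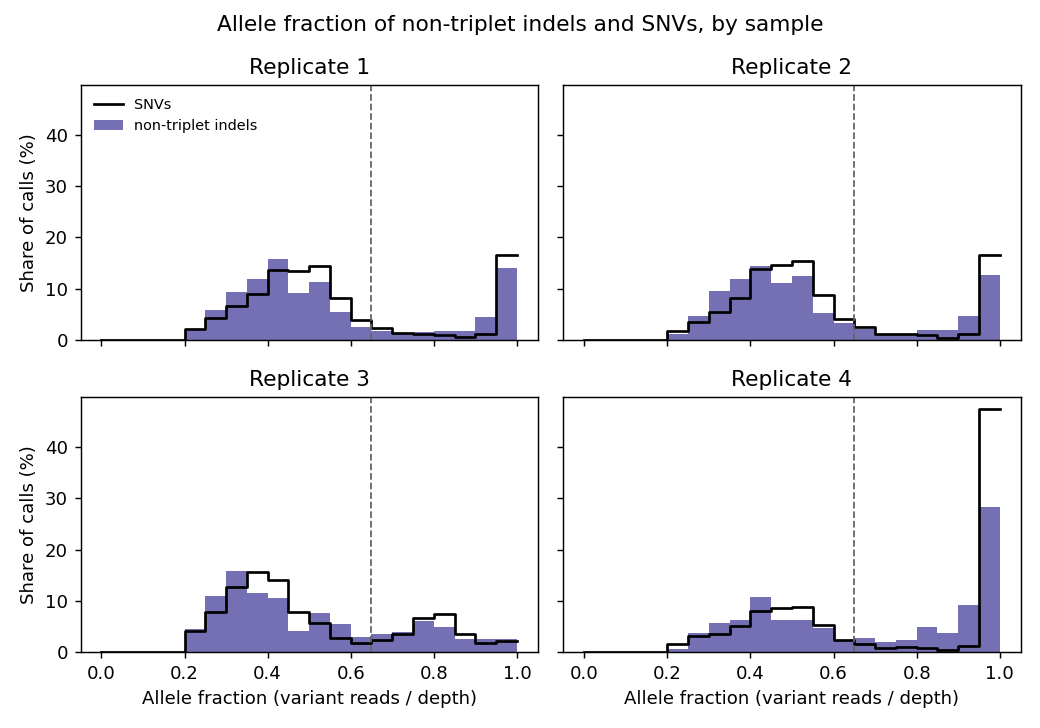
Share of calls in percent (y axis) by SpeedSeq allele fraction in bins of 0.05 (x axis), for non-triplet indels (bars) and SNVs (black line) in each of the 4 samples; the dashed line marks 0.65. Replicate 4 has 53.3% of its indels right of that line against 26.6%, 25.8% and 26.1% in the others, and in replicate 3 both peaks lie further left.

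Indels were then read in stretches where nearly every read at the SNVs carries the variant. For 899 indel calls the SNVs of the same sample within 50 kb, at least 3 of them, had a median allele fraction of 0.95 or more. The indels there had a median fraction of 0.952, 0.943, 0.933 and 0.949 by variant reads over depth, close to the SNVs. In one-base runs the medians were 0.75, 0.786, 0.774 and 0.687. Depth also counts reads assigned to neither allele, and over reference plus variant reads the one-base runs had a median of 1 in all 4 samples. VarScan2 gave lower medians over all contexts, 0.839, 0.806, 0.8 and 0.789. Replicate 3 contributes 33 of these calls and only 2 of them in one-base runs. Members in Sfi1, a gene reported below as uncertain because copies can share its reads, were not left out. Sfi1 held 41, 35, 17 and 16 members in replicates 1 to 4. The SNVs around its named members had medians of 0.96 to 0.976, so it weighs most in replicate 3. The share of upper-range calls moved in one-base runs, from 18.7%, 19.1%, 14.1% and 35.3% over depth to 48.7%, 46.9%, 40.9% and 75.8% over reference plus variant reads. In no repeat it moved less, from 27.0%, 27.1%, 29.8% and 59.8% to 31.0%, 32.0%, 32.8% and 64.4%.

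**Figure D3:**
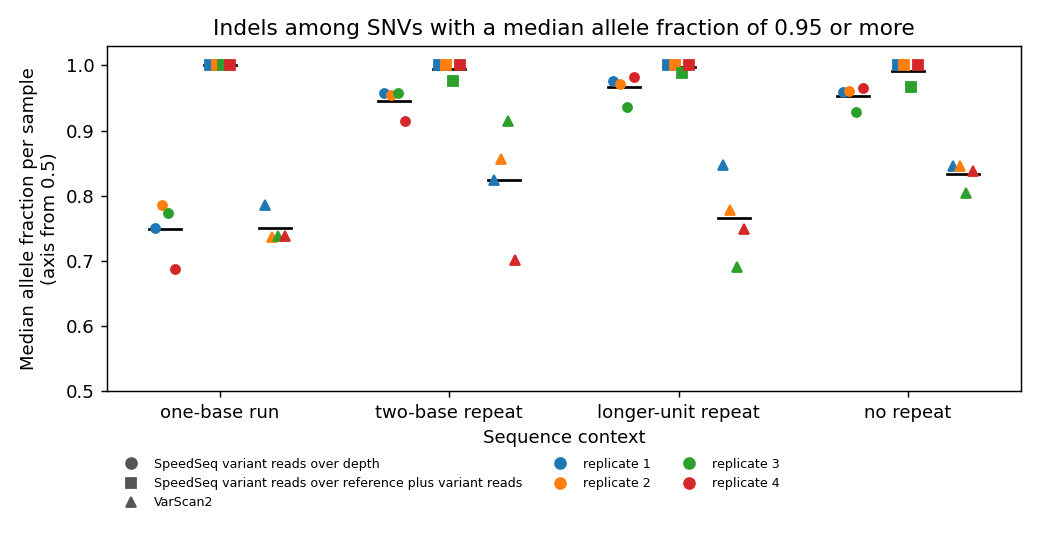
Median allele fraction per sample (y axis, starting at 0.5) of indels whose neighbouring SNVs have a median of 0.95 or more, by sequence context (x axis) and by way of counting (marker shape), with the mean over the 4 samples as a black line. The circles of one-base runs lie between 0.687 and 0.786 while their squares lie at 1.

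An 8-base deletion in Kit, the receptor tyrosine kinase for stem cell factor that was used to sort these cells, had different values under the 2 denominators. It had 6 variant reads of 14 in replicate 1 and 6 of 17 in replicate 2, 42.9% and 35.3% of the depth. Only 0 and 1 reads supported the reference, so over reference plus variant reads the fractions were 100% and 85.7%, and the SNVs around it had a median of 1 in both samples. The 4-base Kit insertion of the first set passed every limit in replicates 3 and 4, with 9 of 33 and 23 of 24 variant reads. SpeedSeq alone listed it in replicate 1 with 25 of 26 reads and in replicate 2 with 23 of 25, and VarScan2 did not list it in those samples.

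The callers overlapped unevenly. Of the indels that passed the limits in SpeedSeq, 92.9%, 92.3%, 94.7% and 88.4% passed every limit in both callers. Of those that passed in VarScan2 the shares were 57.8%, 58.9%, 56.1% and 57.3%, where an indel could be missing from SpeedSeq or fail one of its limits. In the latter direction the share was 56.5% for even and 63.5% for odd lengths on average, a difference of -6.99 ± 3.30 points with the same sign in 4 of 4 samples (exact sign-flip p = 0.125, adjusted p = 0.181). At the edge of the rule, 30, 25, 32 and 20 members had a quality score between 20 and 30, and 25, 27, 22 and 18 indels missed the limit with a score between 10 and 20. A smaller depth of 10 or 11 reads was met by 71, 74, 52 and 65 members, and 76, 82, 65 and 70 indels missed the limit with 8 or 9. In SpeedSeq 217, 310, 321 and 248 members had all their variant reads on a single strand.

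Of the 1908 sites 840 were found in 1 sample, 478 in 2, 362 in 3 and 228 in all 4. Replicates 1 and 2 shared the most, 624 sites, which is 63.0% of the members of replicate 1 and 60.3% of those of replicate 2. Replicates 3 and 4 shared 423, 44.6% of the former and 51.6% of the latter. Even sites were in all 4 samples in 11.6% of cases (10.04 to 13.2) and odd sites in 14.0% (10.3 to 18.4), intervals that overlap. Among sites in no repeat the shares were 15.8% (13.3 to 18.6) and 14.8% (10.3 to 20.3). Of two-base repeat sites 61.8% were in a single sample (56.3 to 67.1), of one-base run sites 50.3%, of longer-unit sites 42.0% and of sites in no repeat 36.3% (33.3 to 39.5). Intervals here cover counting error only, and linked sites are not independent. Of the 228 sites in all 4 samples, 56 were upper-range in each of them, 37 in none, and the rest in some samples but not in others.

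Most members sat among SNVs. An SNV of the same sample lay within 50 kb of 91.7%, 91.9%, 90.6% and 89.1% of the members, against 69.8%, 69.1%, 72.0% and 66.0% of one-base indels, a difference of 21.6 ± 2.04 points in 4 of 4 samples (exact sign-flip p = 0.125, adjusted p = 0.181). Indels in multiples of 3 had shares of 93.4%, 95.6%, 95.2% and 93.4%, above the members in each sample, a difference that was not tested. For odd lengths the shares were 97.6%, 97.0%, 97.4% and 97.2%, and for even lengths 90.5%, 90.9%, 89.3% and 87.4%. Two-base repeats had the lowest shares of the 4 contexts, 65.4%, 65.5%, 61.6% and 60.2%, against 98.0%, 97.8%, 99.2% and 98.3% in no repeat. That difference of -35.2 ± 3.14 points had the same sign in 4 of 4 samples (exact sign-flip p = 0.125, adjusted p = 0.181). It was -18.4 points among indels with a quality of at least 100.

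Sharing and neighbouring SNVs went together in two-base repeats. Of the 202 calls found in 1 sample, 77 had an SNV nearby (38.1%, 31.4 to 45.2), of those found in 2 samples 70.3%, in 3 samples 82.5% and in 4 samples 81.7% (72.9 to 88.6). In one-base runs the share rose from 75.3% of calls in 1 sample to 80 of 80 calls at sites in all 4. Sites in no repeat stood at 98.3% when found in 1 sample and at 98.6% when found in all 4. Where at least 3 SNVs surrounded an indel, the indel fell in the same range as their median, upper or lower, in 93.2%, 91.1%, 86.4% and 88.1% of cases. Even and odd lengths differed in this by -0.401 ± 3.92 points (exact sign-flip p = 0.875, adjusted p = 0.875), which is within the spread between samples.

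**Figure D4:**
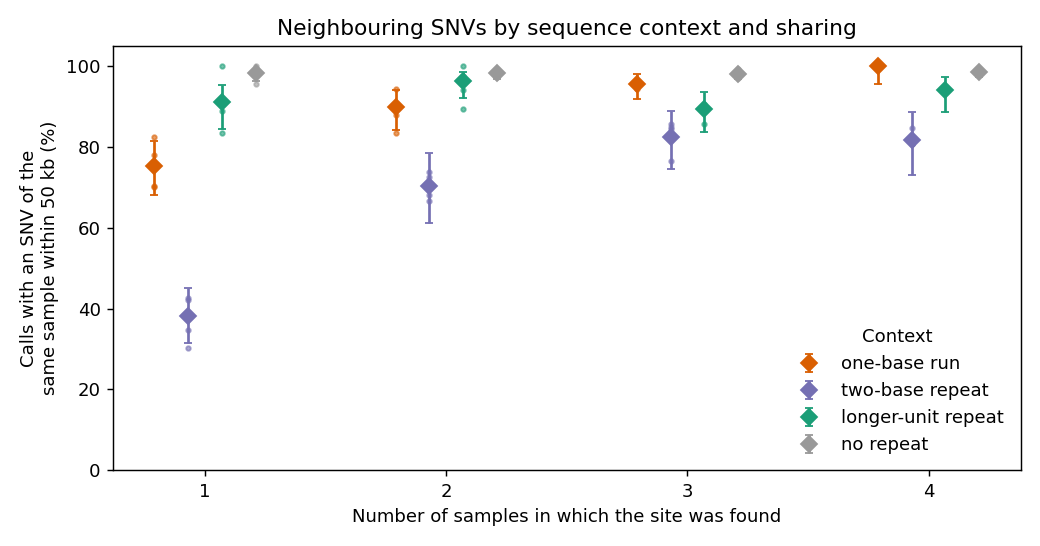
Percent of indel calls with an SNV of the same sample within 50 kb (y axis) by the number of samples holding the site (x axis) and sequence context (colour); diamonds pool the 4 samples with exact 95% binomial intervals, and small points are single samples. The diamond of two-base repeats found in 1 sample lies at 38.1%. The diamonds of sites in no repeat lie at 98.1% or higher throughout, with single samples down to 95.6%.

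A stricter set of 434 indels had no indel listed by either caller within 10 bases in any other sample: 98, 76, 224 and 36 in replicates 1 to 4. Replicate 3 held the most, and 183 of its 949 members lay on chromosome 9, against 44, 61 and 3 in replicates 1, 2 and 4. Of these 434, 94 had no SNV of their sample within 50 kb, and their numbers per sample were 23, 22, 28 and 21. Two-base repeats made up 18, 17, 21 and 18 of them, 74 of 94 in all, and sites in no repeat 2, 1, 1 and 0.

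Of this set 39 were upper-range, 5, 7, 25 and 2 in replicates 1 to 4, and the median fractions were 0.402, 0.412, 0.385 and 0.417. The members below were picked for high allele fractions and are not typical of the set. In replicate 4 a 5-base insertion in Tyms, thymidylate synthase, had 37 of 39 reads. In replicate 3 a 4-base deletion in Tmem106c had 45 of 51 reads where the SNVs had a median of 0.808, and a 4-base deletion in Nars, an asparaginyl-tRNA synthetase, 69 of 86 reads where they had a median of 0.818. In replicate 1 a 14-base deletion in Rala, a small GTPase, had 8 of 10 reads and no SNV within 50 kb. An 8-base deletion in Dsp, desmoplakin, had 9 of 13 reads there. In replicate 2 a 10-base insertion in Snd1 had 8 of 10 reads with no SNV nearby, and a 13-base insertion in Ttll9 had 10 of 10 among SNVs with a median of 1. VarScan2 gave 72.7% for the Snd1 insertion but 27.8% for the Ttll9 insertion, whose SpeedSeq variant reads lay on a single strand. In replicate 4 a 2-base deletion in a 30-base AC repeat in Prodh, proline dehydrogenase, had 7 of 11 reads, again with no SNV nearby. Depths of 10 to 13 reads leave wide intervals, 44.4% to 97.5% for the Rala deletion.

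Protein-coding gene bodies held 1627 of the sites (85.3%), in 1102 genes, which is 5.33% of the 20661 autosomal protein-coding genes in the gene table. More than 1 site was found in 321 of them, at least 5 in 28 and at least 10 in 2. Sfi1, which encodes a centrin-binding protein of the centrosome, held 42 sites. It is reported as uncertain, because near-identical copies can share its reads: the deepest member there had 6001, 3969, 5811 and 4731 reads in replicates 1 to 4, against medians of 33, 31, 37 and 30 over all members. Of its members 13, 12, 11 and 11 exceeded 10 times the median depth. Vps13c, a lipid transfer protein gene on chromosome 9, held 12 sites, all in replicate 3 and none upper-range, with a median fraction of 0.322. Hmmr, the hyaluronan-mediated motility receptor, held 8 sites, of which 1, 0, 7 and 7 were upper-range in replicates 1 to 4. Iqgap2 held 9 sites with none in replicate 2, and Ttc37 held 8 with none in replicate 2. Eprs, a glutamyl-prolyl-tRNA synthetase, also held 8, with 5 of 5 upper-range in replicate 1 but 1 of 7 in replicate 2.

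The gene lists below were drawn up with earlier results of these data known. Of 23 polycomb and chromatin genes 5 held a member, of 16 JAK-STAT genes 2, of 13 mismatch repair and polymerase genes 2 and of 6 cohesin genes 1. RAS pathway genes had 1 of 18, other DNA repair 1 of 15, branched-chain amino acid genes 1 of 7 and splicing factors 0 of 6. A control list of large or repetitive families had 24 of 2000 (1.20%), and all autosomal protein-coding genes 5.33%. The shares of the RAS pathway and other DNA repair lists, 5.56% and 6.67%, lie near the latter. These are counts of gene bodies, which differ in length, in repeats and in how well they were captured.

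In the DNA replication and mismatch repair list, Pole, the catalytic subunit of DNA polymerase epsilon, held 4 sites. The 16-base deletion shown above had 23 of 43 reads in replicate 1, 14 of 33 in replicate 2 and 18 of 46 in replicate 3. It was lower-range in all 3, as were the SNVs around it, with medians of 0.479, 0.485 and 0.375. A 2-base insertion in the same gene had 18 of 61, 22 of 38 and 14 of 54 reads in the same samples. Lig1, DNA ligase 1, had the CT-repeat deletion shown above in replicate 3 only, with 11 of 28 reads and no SNV within 50 kb. Its SpeedSeq variant reads lay on a single strand, as did those of the 16-base Pole deletion in replicates 1 and 3. The Pole insertion had variant reads on both strands in each of its samples.

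Among chromatin genes, Crebbp, a histone acetyltransferase, had the GT-repeat deletion in 6 of 13 reads in replicate 2 and 5 of 12 in replicate 4. VarScan2 alone listed it in replicate 1, with 5 of 15 reads. Eed, a core subunit of Polycomb repressive complex 2, had a 2-base deletion in a 50-base AC repeat in replicate 4, with 13 of 31 reads, and VarScan2 alone listed it in replicate 3. None of the 3 member calls in Crebbp and Eed had an SNV within 50 kb. Mtf2, an accessory subunit of the same complex, had a 2-base deletion in a run of 10 T in 7 of 19, 14 of 31 and 14 of 40 reads in replicates 1, 2 and 3. Asxl1, a cofactor of the polycomb deubiquitinase, had a 13-base insertion in 15 of 16 reads in replicate 2 and 10 of 14 in replicate 4. VarScan2 gave that insertion a lower fraction, 31.0% and 21.3%. Both callers also listed it in replicate 1, with 4 of 8 reads in SpeedSeq, under the depth limit, and 4 of 16 in VarScan2. The 2-base CT deletion in Asxl1 had 7 of 12 reads in replicate 3 and 10 of 10 in replicate 4. Both callers also listed this deletion in replicate 2, with 8 of 8 reads in SpeedSeq, under the depth limit, and 7 of 11 in VarScan2. Kmt2c, a histone methyltransferase of enhancers, had 2 insertions of 2 bases in replicate 3 only, with 10 of 40 and 7 of 21 reads. In SpeedSeq the variant reads of each Crebbp, Eed and Asxl1 member call lay on a single strand. Both strands carried them for Mtf2 in replicates 1 and 3 and for the Kmt2c insertion with 10 of 40 reads.

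In the signalling and cohesin lists, Jak1, a cytokine receptor kinase, had the 13-base insertion shown above in replicate 3 alone, with 20 of 91 reads (22.0%, 14.0 to 31.9) and no SNV within 50 kb. Il7r, the interleukin-7 receptor, had a deletion in a 44-base GA repeat in replicate 3, with 11 of 18 reads and no SNV nearby. Stag1, a cohesin subunit, had an insertion in 4 of 11 reads in replicate 3. Arhgap26, a GTPase-activating protein, had 2 sites on chromosome 18. A 2-base deletion in a one-base run had 17 of 55 reads in replicate 2 and 11 of 31 in replicate 4. Only 1 and 0 reads supported the reference, so over reference plus variant reads the fractions were 94.4% and 100%. VarScan2 gave 66.7% and 65%, and it alone listed this deletion in replicate 1, with 14 of 19 reads. Bcat1, a branched-chain aminotransferase, had the deletion in a run of G in replicate 1, with 10 of 25 reads, while 1 read supported the reference. Xrcc6, the Ku70 subunit of end joining, overlaps Desi1 at both of its sites. The 8-base deletion there had 7 of 12 reads in replicate 2 and 11 of 26 in replicate 4. Both callers also listed this deletion in replicate 1, where SpeedSeq gave it a quality of 1.75, under the limit. SpeedSeq variant reads lay on a single strand for Stag1, Bcat1 and Xrcc6. They lay on both strands for Jak1, Il7r and the Arhgap26 deletion.

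Members found in all 4 samples with the widest range of allele fraction mostly lay on the same side of 0.65 as the SNVs around them. The 5-base deletion in Pkd2l1, a cation channel, had 18 of 68, 35 of 80, 59 of 75 and 64 of 64 reads in replicates 1 to 4, that is 26.5%, 43.8%, 78.7% and 100%. SNVs within 50 kb had medians of 0.353, 0.477, 0.795 and 1. Replicates 3 and 4 were upper-range and replicates 1 and 2 lower-range. The Hmmr deletion in a T run had 11 of 34, 11 of 48, 44 of 64 and 28 of 28 reads, with the same split. The 5-base insertion in Ankrd17, an ankyrin repeat protein, had 33 of 34, 33 of 36, 14 of 58 and 30 of 30 reads, so that replicate 3 alone was lower-range, and SNV medians were 1, 1, 0.374 and 1. The 8-base insertion in G3bp1, a stress granule protein, was the one named member of this kind that crossed 0.65 differently from its SNVs. It had 14 of 64, 16 of 41, 21 of 41 and 38 of 39 reads, and in replicate 3 its 51.2% (35.1 to 67.1) stood beside an SNV median of 0.763. Bpifa5 and Uchl1 carried 2-base changes with fractions from 23.2% to 100% and from 26.1% to 100%.

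Among the longest members, the values of deletions and insertions stood as follows beside those of their SNVs. The 28-base deletion in Nolc1, a nucleolar phosphoprotein, had 29 of 63 reads in replicate 2, 63 of 80 in replicate 3 and 76 of 76 in replicate 4, that is 46.0%, 78.8% and 100%. The SNV medians there were 0.509, 0.809 and 1. VarScan2 gave 25.7%, 44.7% and 63.6%, lower in each sample. The 29-base deletion in Th, tyrosine hydroxylase, had 24 of 45 reads in replicate 1 (53.3%, 37.9 to 68.3). A 25-base deletion in Llgl1, a cell polarity protein, had 16 of 50 and 21 of 62 reads in replicates 1 and 2. The longest insertion, 22 bases in Osbp2, had 6 of 12 reads in replicate 3, beside an SNV median of 0.760. Both callers also listed it in replicate 4 under the depth limit, with 5 of 5 reads in SpeedSeq and 5 of 8 in VarScan2. The next, 20 bases in the beta-defensin gene Defb25, had 10 of 15 and 8 of 13 reads in replicates 2 and 4, with no reference reads in either and an SNV median of 1 in both. A 19-base insertion in Ankrd17 had 17 of 17 and 11 of 12 reads in the same samples, also among SNVs with a median of 1. Both callers also listed the Ankrd17 insertion in replicate 1, with 8 of 9 reads in SpeedSeq, under the depth limit, and 7 of 24 in VarScan2. In replicates 2 and 4 VarScan2 gave lower fractions for both insertions, 32.7% and 33.3% for the one in Ankrd17 and 57.1% and 30.4% for the one in Defb25. For the Osbp2 insertion in replicate 3 it gave 50%, the same as SpeedSeq.

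**Figure D5:**
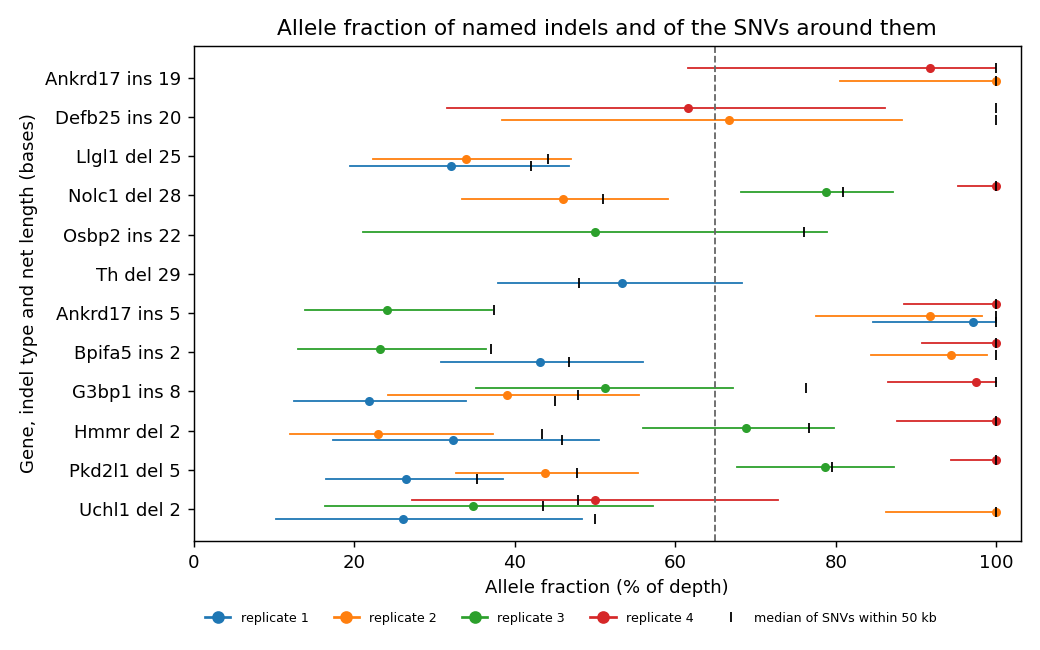
Allele fraction in percent of depth (x axis) with exact 95% binomial intervals for 12 named indels (y axis: gene, type and net length), the 6 longest and the 6 with the widest range over the 4 samples; black ticks are the median of the SNVs within 50 kb and the dashed line marks 65%. The Pkd2l1 deletion runs from 26.5% to 100% with the ticks of its neighbours, and the G3bp1 insertion of replicate 3 lies left of its tick.

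Upper-range members in all 4 samples numbered 31 in gene bodies. Of the 8 with the greatest depth, 6 lay in Sfi1. Another, an insertion in the predicted gene Gm42346, had fractions of 73.7%, 74.9%, 75.9% and 79.1% at depths of 512 to 632 reads, among SNVs with medians of 0.430 to 0.524. The last was a 2-base deletion in a short AG repeat of the Ugt1a cluster, whose genes encode glucuronosyltransferases. Its depths were 279 to 377 reads, against medians of 33, 31, 37 and 30 over all members. This deletion and the Gm42346 insertion are reported as uncertain, as Sfi1 is. Whether near-identical copies share their reads was not tested.

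That Ugt1a deletion also lies in a promoter window, the stretch that RefSeq lists from 250 bases before to 50 bases after a gene start in GRCm38.p6. Such windows held 22 of the 1908 sites, and hairpins of annotated miRNAs held 0. The reference letters of all 22 matched the RefSeq windows. Their positions show how the members sit around starts.
Ugt1a1, 26 bases after the start, chr1:88211984-88211998: cAGagagagagagat
Apobec3, 67 bases before the start, chr15:79892340-79892342: gAGAGAGAag
Dancr, 7 bases before the start, chr5:74093052-74093069: cGGggggggggggcagct
Ccni, 245 bases before the start, chr5:93206739-93206742: tTCc
Fam214a, 79 bases before the start, chr9:74952973-74952998: aGCGTCTCGgcgtctcggcgtctcgg

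The Ugt1a1 deletion had 311 of 377, 221 of 291, 240 of 324 and 221 of 279 reads in replicates 1 to 4. Those are 82.5%, 75.9%, 74.1% and 79.2%, close to each other. The 7-base insertion before Apobec3, a cytidine deaminase, had 10 of 35 reads in replicate 2 and 15 of 46 in replicate 4. The deletion in a G run at the start of Dancr, a noncoding RNA, had 13 of 13 reads in replicate 2 but 6 of 17 in replicate 3. That run begins before the start and extends past it. The position given above is the leftmost placement, and the lost bases could lie on either side. The deletion before Ccni, cyclin I, had 68 of 69, 37 of 38 and 38 of 40 reads in replicates 1, 2 and 4. One unit of an 8-base repeat was deleted before Fam214a in 16 of 38 reads in replicate 3. No expression was measured in these files, so what any of these indels does to its gene was not tested.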

How the data were processed

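Exomes of 4 samples were captured with an Agilent SureSelect XT mouse all-exon kit, per the labels' protocols. SpeedSeq files, which freeBayes 0.9.21 called 1 sample at a time against UCSC mm10, hold a quality score and read numbers in packed fields, per the file headers. The VarScan2 tables of SNVs and indels hold other packed values, the reference and variant reads, per the file headers. The sources used here do not give the aligner, the handling of duplicates or the version of VarScan2.

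Alleles were trimmed from the right and then from the left and matched between callers by position and bases. Neighbouring SNVs passed the same limits within 50 kb on either side. The repeat contexts and the comparisons with neighbouring SNVs were added after the data were seen. Shares have exact (Clopper-Pearson) 95% binomial intervals, which cover counting error only. Differences within samples were tested by exact two-sided sign-flip permutation over 4 samples, with Benjamini-Hochberg adjustment over 13 tests. Parsing and matching were tested on simulated data. Gene bodies, promoter windows and miRNA hairpins come from RefSeq on GRCm38.p6, the same build as mm10. Scripts ran in Python 3.11.15 with pandas 2.3.3 and SciPy 1.17.1.

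The members and gene lists were chosen with earlier results of these data known. Named genes are each list gene with a member, genes with most sites, the 3 longest insertions and deletions, members upper-range in all samples by depth, members in all samples by range of fraction, and up to 3 members per sample not listed in another by allele fraction. Control-list genes enter only as counts. The count for the myeloid driver list and 1 of its genes are not reported here. Alternatives varied callers, fraction, depth, quality, strand support, repeat limits and window size, and left out each sample in turn. Sequence-based coding effects were not analysed here.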

Additional observations from a re-analysis of the deposited data

Results flagged for a closer look

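In 4 of the quantities examined per sample, 1 sample lay far from the other 3 by Dixon's criterion, which chance alone meets in about 1 in 20 groups; 14 quantities were examined. Replicate 4 had the highest share of upper-range members, 53.3%, and the same held for even lengths at 51.8% and for odd lengths at 60.1%, so these 3 values describe 1 pattern. SNVs of replicate 4 were upper-range in 53.4% of cases, beside 24.2%, 24.0% and 27.7% in the others. Replicate 3 had the lowest median allele fraction of lower-range members, 0.343, and the lowest of SNVs, 0.379.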

How the results depend on the processing

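Of 152 alternative values over the 10 results, 7 reversed, 3 counts or shares moved, and the other 142 kept their direction, though several not their size. The number of members per sample was 1648 on average with VarScan2 alone and 512.25 without indels in a repeat, and the even share of sites was 77.9% without them. Leaving those indels out, an alternative chosen after seeing the data, also reversed the even minus odd difference in sites found in all samples, from -2.43 to 1.05 points, and the excess of upper-range shares over one-base indels, to -2.74 points. The even minus odd difference in upper-range shares reversed to 0.403 points with the VarScan2 fraction and to 0.0276 points with reference plus variant reads, the latter chosen after seeing the data. That in insertion shares reversed to 0.629 points at a depth of at least 20, to 0.852 at a quality of at least 100 and to 1.36 with variant reads on both strands, and it was -7.36 with VarScan2 alone. Without indels in a repeat the upper-range difference was -0.128 points, and at a depth of at least 20 it was -1.33. The cause of these changes was not tested. The lower near-SNV share of two-base repeats ranged from -41.9 (longer runs) to -18.4 points (quality of at least 100) over 15 alternatives, and their lower insertion share from -21.3 to -6.06 over 13 at the same settings. The lower median fraction of members against SNVs ranged from -0.0670 (VarScan2 alone) to -0.0193 (reference plus variant reads) over 17. Leaving out each sample in turn moved members per sample between 919.667 and 991.333, the even share between 83.8% and 84.4%, and the even minus odd difference in sites found in all samples between -2.97 and -1.20 points. The upper-range difference then lay between -6.14 and -3.12 points, the excess over one-base indels between 4.51 and 7.60, and the insertion difference between -1.65 and -0.707. VarScan2 alone gives no repeat context. Classes of variant were paired within each sample. No pairing between samples was possible because the samples form 1 group and replicate numbers follow listed order. At depths of 10 to 13 reads single fractions are imprecise, and no member under a fraction of 0.2 can be seen.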
